A study of Homo sapiens with 2 samples.

Results

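The glucocorticoid receptor and 8 genes known to respond to it or to share its families were followed in Hep3B, an established cell line from a human liver cancer. The genes were chosen by symbol, as NR3C1, SGK1, SGK3, FKBP5, TSC22D3, TAT, PCK1, TSC22D1 and CRISPLD2, and make up 9 of the 43424 symbols in the count tables. The study asked whether Glehnia littoralis extract (GLE), made from a coastal herb, acts on these cells, with an interest in apoptosis. There was 1 library from cells given GLE and 1 from control cells given the solvent dimethyl sulfoxide (DMSO). Both came from wild-type cells, as labelled, grown in medium with 10% fetal bovine serum, and no glucocorticoid treatment is named. Neither the dose nor the time of GLE for the sequenced cells was given in the sources used here. With 1 library per group no difference below has a replicate check, no test between conditions was made, and the values describe these 2 libraries.

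The glucocorticoid receptor is a steroid-activated transcription factor that waits in the cytosol bound to HSP90 and its co-chaperones. On binding cortisol it enters the nucleus, where it switches on some genes directly at palindromic DNA sites and holds down others, among them inflammatory chemokines, by acting on other factors. In liver it is best known for raising gluconeogenesis and amino acid breakdown, and serum itself carries some steroid hormone. SGK1, the serum- and glucocorticoid-regulated kinase, FKBP5, a co-chaperone that lowers the receptor's affinity for hormone, and TSC22D3, the leucine zipper protein GILZ, are among its classic induced genes. TAT and PCK1 encode the first enzyme of tyrosine breakdown and the cytosolic enzyme that commits oxaloacetate to glucose.

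The library kit reads the 3′ end of polyadenylated RNA, so a count stands for a transcript end whatever its length, and transcripts of one gene that differ only at their start are summed. The GLE library held 3636351 counts and the DMSO library 5618328. Mitochondrial rRNA took 13.2% of the counts of the GLE library and 8.52% of those of the DMSO library, and its part in the results was not tested. Levels below are CPM, counts scaled to the effective library size, where 1 count was worth 0.283 CPM in the GLE library and 0.173 CPM in the DMSO library. Intervals are exact 95% counting intervals, and they cover counting error only, because each group has 1 library. Reads were not tied to single molecules by identifiers, so duplicate reads could make even these intervals too narrow. Less RNA per cell and fewer cells that express a gene cannot be told apart in such bulk libraries. All 8 hepatocyte markers were counted, with a sum of 4780 CPM in the GLE library and 7565 CPM in the DMSO library. Most of the sum was ALB, at 2708 CPM in the GLE library and 4325 CPM in the DMSO library. APOB, AFP, APOA1 and TTR were also lower in the GLE library, whereas SERPINA1, KRT8 and KRT18 were higher. SERPINA1 was at 186 CPM in the GLE library and 128 CPM in the DMSO library. The 6 fibroblast markers summed to 20.4 CPM in the GLE library and 4.67 CPM in the DMSO library. COL1A1 led that list with 29 GLE and 4 DMSO counts, and DCN had 9 GLE and 0 DMSO counts. The endothelial markers CDH5, VWF and KDR were at 0 in both libraries, while PECAM1 had 1 GLE and 36 DMSO counts and made up the list's sums of 0.283 CPM in the GLE library and 6.23 CPM in the DMSO library. The 6 blood cell markers summed to 469 CPM in the GLE library and 496 CPM in the DMSO library. Of these, PTPRC had 3 GLE and 1 DMSO counts and CD3E was at 0 in both. HBB had 9 GLE and 0 DMSO counts, CD14 9 GLE and 37 DMSO counts, and CD68 96 GLE and 117 DMSO counts. LYZ, which gave most of the sum, was at 436 CPM in the GLE library and 469 CPM in the DMSO library. The part of these markers in the results was not tested.

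Enough reads to compare the libraries, set at 30 counts over both, were found for 5 of the 9 genes. The receptor and FKBP5 were near their control level, SGK1 was far lower in the GLE library, and the related zipper genes TSC22D3 and TSC22D1 lay on opposite sides. At least 2-fold higher was 1 gene, TSC22D3, against a background of 9.54% of the 11068 genes with as many counts. At least 2-fold lower were 2 genes, SGK1 and TSC22D1, against a background of 10.5%. The counting interval lay above 1 for 2 of the 5 genes and below 1 for 2, where it lay above 1 for 27.7% and below 1 for 30.1% of all measured genes. The 2 above 1 were TSC22D3 and FKBP5, and under 4 alternatives, given with FKBP5, the count was 1. The median log2 ratio of the 5 genes was -0.19, against -0.04 over all measured genes. The other 4 genes had 0 to 14 counts over both libraries.

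**Figure D1:**
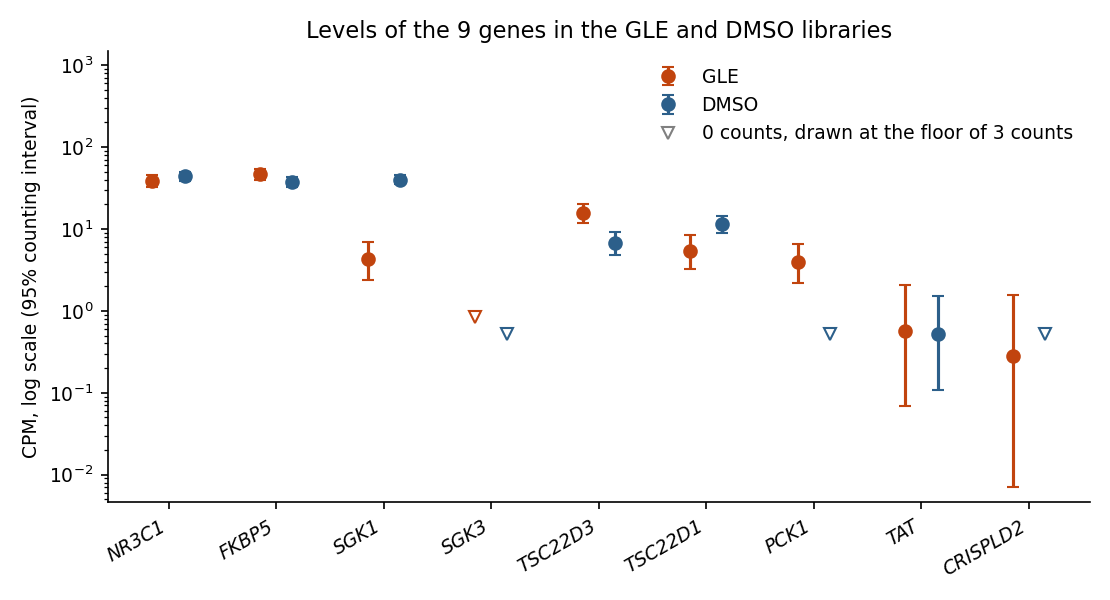
Level of each of the 9 genes in the GLE (orange, left) and DMSO (blue, right) libraries, in CPM on a log scale. Bars are 95% counting intervals, and open triangles mark 0 counts, drawn at the floor of 3 counts. SGK1 and PCK1 show the widest separation, at 4.24 CPM in the GLE library against 40.0 CPM in the DMSO library for SGK1, and with a count for PCK1 in the GLE library alone.

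NR3C1, which encodes the receptor, lies on chromosome 5 (143277931 to 143435512, minus strand, GRCh38). It had 137 counts in the GLE library, or 38.8 CPM (32.5 to 45.8), and 256 counts in the DMSO library, or 44.3 CPM (39.0 to 50.1). The intervals overlapped, and the ratio of GLE over DMSO was 0.875 (0.705 to 1.08), so a difference was not detectable at this depth. Of all measured genes, 40.9% had a lower log2 ratio. The overlapping RefSeq gene LOC128966704 had 6 GLE and 2 DMSO counts. NR3C1 has 7 distinct start windows in the RefSeq promoter table, and 3′ counts do not tell transcripts from different starts apart. The protein-coding genes with at least 100 counts closest to it in ratio were ARRB2, BLTP3B and RAD17, at 0.875, 0.875 and 0.872, a likeness that rests on 2 libraries.

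FKBP5, on chromosome 6 (35573590 to 35728583, minus strand), binds HSP90 in the receptor complex and forms a short feedback loop with it, since the receptor induces it. The GLE library had 164 counts, or 46.4 CPM (39.6 to 54.1), and the DMSO library 216 counts, or 37.4 CPM (32.6 to 42.7). The ratio was 1.24 (1.01 to 1.53). The interval included 1 under scaling by total counts (0.952 to 1.44), by upper-quartile factors (0.989 to 1.5), by totals without the 20 most abundant and mitochondrial genes (0.984 to 1.49), and with a trend over GC content removed (0.934 to 1.42). Of all measured genes, 69.5% had a lower log2 ratio than FKBP5.

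SGK1, on chromosome 6 (134169256 to 134318112, minus strand), encodes a kinase of the AKT group that acts on ion transport and cell survival, and whose messenger RNA is known to respond to serum, glucocorticoids and cell stress. It had 15 counts in the GLE library, or 4.24 CPM (2.37 to 7.0), and 231 counts in the DMSO library, or 40.0 CPM (35 to 45.5). The levels were far apart, with a ratio of 0.106 (0.0584 to 0.179), which is 9.42-fold lower in the GLE library (5.60 to 17.1). By log2 ratio SGK1 ranked 33 from the lowest of the 11068 genes, and it was the one gene of the 9 whose whole interval lay beyond 2-fold lower. The nearest protein-coding genes in ratio with at least 100 counts were DDX28 at 0.113, SULT1E1 at 0.129 and TCIM at 0.0660. SGK3, a relative of SGK1 with a lipid-binding PX domain, lies on chromosome 8 (66712781 to 66862022) and had 0 counts in both libraries. That allows up to 0.848 CPM in the GLE library and 0.519 CPM in the DMSO library at the floor of 3 counts. The whole SGK3 span lies within the read-through gene C8orf44-SGK3 (66667596 to 66862022), also at 0 in both. The overlap setting of the counting was not given in the sources used here, so these zeros need not measure the level of SGK3.

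Counts of one gene per count of another within a library need no scaling between libraries. There were 0.109 SGK1 counts per NR3C1 count in the GLE library and 0.902 in the DMSO library. The conditional odds ratio, GLE over DMSO, was 0.122 (95% counting interval 0.0644 to 0.215). Per FKBP5 count, SGK1 had 0.0915 counts in the GLE library and 1.07 in the DMSO library, an odds ratio of 0.0858 (0.0455 to 0.152). SGK1 was therefore lower relative to both. FKBP5 per NR3C1 count was 1.2 in the GLE library and 0.844 in the DMSO library, an odds ratio of 1.42 (1.05 to 1.92).

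**Figure D2:**
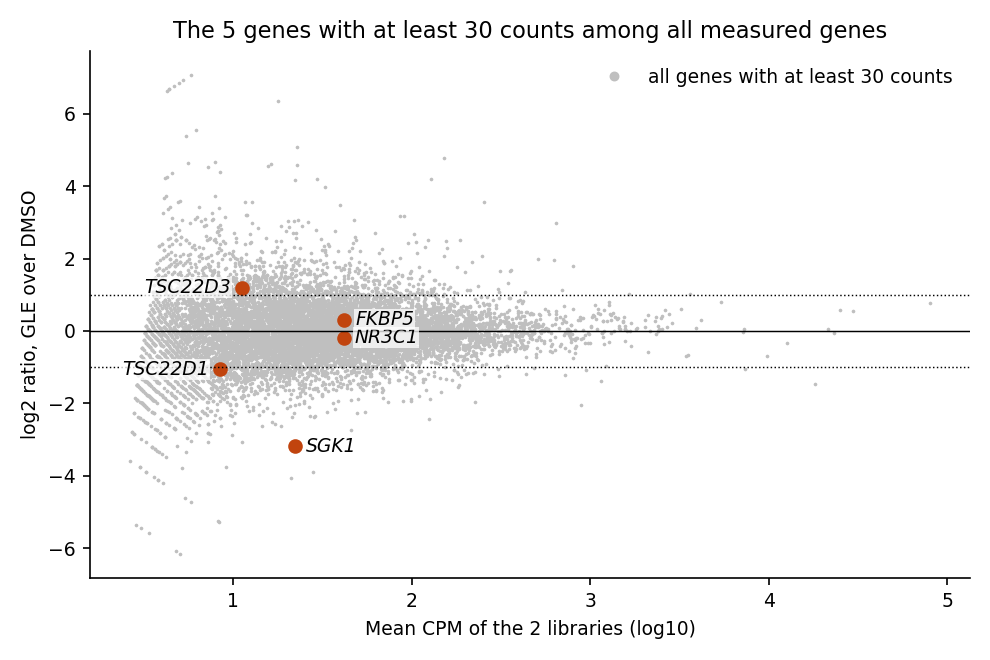
Log2 ratio of GLE over DMSO (0.5 added to each count) against the mean CPM of the 2 libraries (log10 axis) for the 11068 genes with at least 30 counts, with dotted lines at 2-fold. SGK1, at -3.19, sits below nearly all genes of its level, whereas NR3C1 at -0.19 and FKBP5 at 0.31 lie within the cloud.

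TSC22D3 and TSC22D1 encode members of the TSC22 family of leucine zipper proteins. The short TSC22D3 product GILZ binds NF-kB and AP-1 and carries part of the anti-inflammatory action of glucocorticoids, and TSC22D1 was first found as a gene induced by TGF-beta. TSC22D3, on chromosome X (107713221 to 107775988, minus strand), had 55 counts in the GLE library, or 15.6 CPM (11.7 to 20.3), and 39 in the DMSO library, or 6.75 CPM (4.80 to 9.23). Its ratio was 2.30 (1.5 to 3.57), and 93.3% of measured genes had a lower log2 ratio. TSC22D1, on chromosome 13 (44432143 to 44577344, minus strand), had 19 counts in the GLE library, or 5.37 CPM (3.24 to 8.39), and 66 in the DMSO library, or 11.4 CPM (8.83 to 14.5). TSC22D1 was thus on the other side, at a ratio of 0.470 (0.267 to 0.793). Both intervals reach inside 2-fold, and with 2 added to each count the ratio of TSC22D1 was 0.505. The antisense gene TSC22D1-AS1 had 0 counts in both libraries. Set against each other within a library, TSC22D3 had 2.89 counts per TSC22D1 count in the GLE library and 0.591 in the DMSO library, an odds ratio of 4.85 (2.43 to 10.0). The order of the pair by level was therefore opposite in the GLE and DMSO libraries, although their DMSO intervals overlap.

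**Figure D3:**
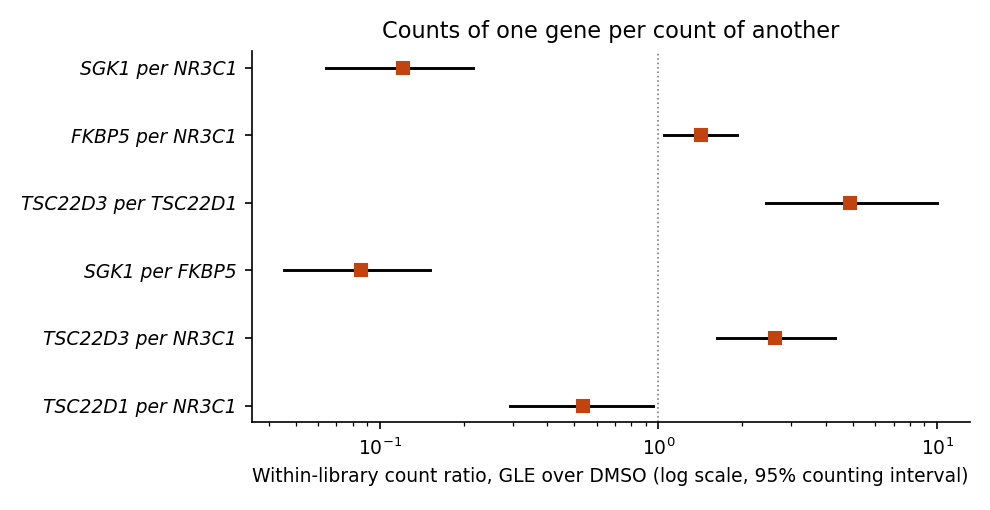
Odds ratio, GLE over DMSO, of the counts of one gene per count of another in the same library (log axis, bars are 95% counting intervals, dotted line at 1). SGK1 per NR3C1 and per FKBP5 lie lowest, at 0.122 and 0.0858, and TSC22D3 per TSC22D1 highest, at 4.85.

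The remaining 3 genes are liver enzymes and a secreted protein with few counts. PCK1, on chromosome 20 (57561110 to 57568121), had 14 counts in the GLE library, or 3.96 CPM (2.17 to 6.64), and 0 in the DMSO library. Set against a floor of 3 DMSO counts it was 7.63-fold higher, which is not a lower limit. The lower end of the counting interval, which also takes in the error of the GLE count, was 5.42. It fell short of the 30 counts needed to enter the comparison above, so it stands outside the counts of 2-fold genes. TAT, on chromosome 16 (71565660 to 71577092), had 2 GLE and 3 DMSO counts, at 0.566 and 0.519 CPM, both at or under the floor. Its partly overlapping antisense gene TAT-AS1 had 0 GLE and 2 DMSO counts. CRISPLD2, on chromosome 16 (84819985 to 84909508, plus strand), encodes a secreted protein known as a glucocorticoid-responsive gene of airway smooth muscle, and had 1 GLE and 0 DMSO counts. No fold is given for TAT or CRISPLD2. PCK1 was thus counted above the floor in the GLE library alone, and TAT in neither library.

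Ordered by level, the GLE library had FKBP5 and NR3C1 first, with overlapping intervals, then TSC22D3, clear of both. TSC22D1, SGK1 and PCK1 followed, and their intervals overlapped one another. In the DMSO library NR3C1, SGK1 and FKBP5 formed the top group with overlapping intervals, and TSC22D1 and TSC22D3 the next. SGK1 thus stood with the receptor and FKBP5 in the DMSO library, and among the low genes in the GLE library.

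Promoter windows from the RefSeq table (GRCh38.p14), which hold 300 bases around a transcript start and mostly the bases before it, were at hand for 6 of the 9 genes, with 22 windows in all. SGK3, TAT and PCK1 are named only. An exact match to the full receptor site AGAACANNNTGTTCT was in 0 of the 22 windows, and in 0.00285% of all 35116 windows of this length. Because such a match is so rare, its absence does not show that these genes lack receptor sites. Inexact sites and sites outside the windows were not searched. The receptor half-site AGAACA, on either strand, was in 3 of the 22 windows and in 14.8% of all windows. The core TGACG, recognised by CREB and ATF factors, was in 6 of the 22 and in 24.6% of all, and TATAAA in 7 and in 11.5%, both counted on either strand. The half-site was in 1 window each of SGK1, TSC22D1 and FKBP5, which have 3, 5 and 2 windows. Its share of the 22 windows was near that of all windows, and a link to the ratios was not tested. Those 3 windows are shown with one of TSC22D3, which holds a pair of TGACG cores upstream of a TATA box and no half-site. Capitals mark the half-site on either strand, the CREB and ATF core and the TATA box, which do not overlap here, and each sequence reads 5′ to 3′ on the minus strand, the strand of the gene.
SGK1, chr6:134177812-134178111: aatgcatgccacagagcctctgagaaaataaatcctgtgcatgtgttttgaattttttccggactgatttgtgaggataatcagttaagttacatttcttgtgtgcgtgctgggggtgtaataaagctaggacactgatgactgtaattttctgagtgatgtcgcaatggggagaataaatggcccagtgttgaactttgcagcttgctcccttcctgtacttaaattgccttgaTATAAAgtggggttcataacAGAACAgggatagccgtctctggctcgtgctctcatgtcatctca
TSC22D1, chr13:44474292-44474591: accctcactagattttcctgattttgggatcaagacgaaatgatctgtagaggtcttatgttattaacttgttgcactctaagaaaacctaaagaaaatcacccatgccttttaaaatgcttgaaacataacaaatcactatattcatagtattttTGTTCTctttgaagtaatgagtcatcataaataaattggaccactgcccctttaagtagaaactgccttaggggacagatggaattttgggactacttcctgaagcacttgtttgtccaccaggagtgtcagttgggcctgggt
FKBP5, chr6:35728534-35728833: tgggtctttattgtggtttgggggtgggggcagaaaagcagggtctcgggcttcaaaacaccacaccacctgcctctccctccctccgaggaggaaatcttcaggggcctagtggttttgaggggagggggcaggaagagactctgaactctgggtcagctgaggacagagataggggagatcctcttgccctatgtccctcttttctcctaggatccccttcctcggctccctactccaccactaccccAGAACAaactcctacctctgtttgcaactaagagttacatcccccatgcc
TSC22D3, chrX:107717013-107717312: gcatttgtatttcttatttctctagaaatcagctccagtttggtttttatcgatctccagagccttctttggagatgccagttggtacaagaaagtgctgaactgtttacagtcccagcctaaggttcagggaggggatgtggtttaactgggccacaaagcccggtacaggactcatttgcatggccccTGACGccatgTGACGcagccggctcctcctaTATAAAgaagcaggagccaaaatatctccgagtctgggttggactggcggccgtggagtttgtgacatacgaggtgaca
In the SGK1 window the half-site spans bases 6 to 11 after the start and the TATAAA bases -15 to -10. The FKBP5 half-site covers bases 1 to 6, and that of TSC22D1 lies on the other strand at -94 to -89. In TSC22D3 the TGACG cores lie at -60 to -56 and -50 to -46, with TATAAA at -29 to -24. A match is a description of letters and not a bound site. Which of the annotated starts Hep3B cells use is not known from these counts.

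Around the 9 genes, 10 lists of pathway genes were followed. Over all measured genes, the background was 9.54% at least 2-fold higher and 10.5% lower, with 27.7% of intervals above 1 and 30.1% below. Receptor chaperones leaned higher in the GLE library. A ratio beyond 2-fold was seen for 3 of the 16 measured, all higher, and the interval was above 1 in 10 and below 1 in 3 of them. The median log2 ratio was 0.35, and 0.17 over genes with at least 100 counts. The HSP40 co-chaperone DNAJB1, the inducible HSP70 gene HSPA1A, HSP90AA1 and the constitutive HSP70 gene HSPA8 stood out, at ratios of 7.95 (7.37 to 8.58), 4.94 (4.34 to 5.64), 2.03 (1.99 to 2.08) and 1.84 (1.64 to 2.07). The count of HSPA1A is uncertain, because HSPA1B is nearly identical to it. FKBP4, the relative of FKBP5 that favours transport of the receptor to the nucleus, was at 0.858 (0.755 to 0.974), a gene picked out after its value was seen.

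Receptor coregulators were mostly near the control level, with 1 of 18 higher and 0 lower by 2-fold or more and a median of -0.14. The interval was above 1 in 3 and below 1 in 8 of them. The coactivator NCOA1 was at 2.35 (1.69 to 3.28) and TRIM28 at 1.53 (1.36 to 1.71). MED1, the Mediator subunit that contacts nuclear receptors, was 1.60-fold lower (1.44 to 1.78).

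Other genes known to be induced by glucocorticoids, in various tissues, lay on both sides. Of the 35 with enough counts, 10 were higher and 9 lower by 2-fold or more, with 14 intervals above 1 and 16 below. Their median log2 ratio was -0.22 and their mean 0.22, and the median was 0.15 at a minimum of 10 counts and -0.02 with a GC trend removed. The highest included PER1, a clock gene, at 11.3 (8.02 to 16.5), and IGFBP1, a secreted binding protein of insulin-like growth factors, at 5.57 (3.42 to 9.41). The metallothioneins MT2A and MT1X, also metal-induced and with near-identical relatives, were at 27.6 (21.3 to 36.4) and 11.0 (5.22 to 26.8). Chosen after their values were seen, KLF9, a zinc finger factor, was at 2.32 (1.66 to 3.26), while TXNIP, CEBPD and NFKBIA were at 0.335, 0.449 and 0.420. TSC22D3 and SGK1, on opposite sides, thus had company on both.

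Genes known to be held down through the receptor were measured for 7 of 16. By 2-fold or more, 4 were lower and 0 higher, with a median log2 ratio of -1.06. IL11 and FOSL1, cytokine and AP-1 genes below the minimum with 20 GLE against 6 DMSO and 12 GLE against 6 DMSO counts, lay the other way at 5.45 (2.11 to 16.6) and 3.27 (1.14 to 10.6). CXCL3, CXCL1 and CXCL2, neutrophil chemokines with much shared sequence, were at ratios of 0.0174 (0.000435 to 0.0993), 0.192 (0.129 to 0.277) and 0.154 (0.0643 to 0.317), and EGR1, an early response factor, was 2.09-fold lower (1.71 to 2.56). CXCL3 had 1 count in the GLE library and 94 in the DMSO library. IL6, PTGS2, MMP1 and VCAM1 were at 0 in both libraries. The median of the list was -0.73 at a minimum of 10 or of 100 counts and -0.57 with none. At a minimum of 100 counts, 2 genes were lower by 2-fold or more.

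Genes that handle the hormone were few. All 5 measured had an interval below 1, and 2 were at least 2-fold lower, with a median of -0.88. That median was -0.71 at a minimum of 10 counts and -0.66 with a GC trend removed. H6PD, which supplies NADPH to the cortisol-forming enzyme, was 2.92-fold lower (2.11 to 4.13), and SRD5A1, a steroid 5-alpha reductase, 2.57-fold lower (1.65 to 4.15). HSD11B2, which inactivates cortisol, and SERPINA6, the corticosteroid-binding globulin, were 1.86-fold (1.17 to 3.05) and 1.47-fold (1.25 to 1.72) lower. HSD11B1, which forms cortisol from cortisone in liver, was at 0 in both libraries. The mineralocorticoid receptor gene NR3C2 had 7 GLE and 12 DMSO counts.

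**Figure D4:**
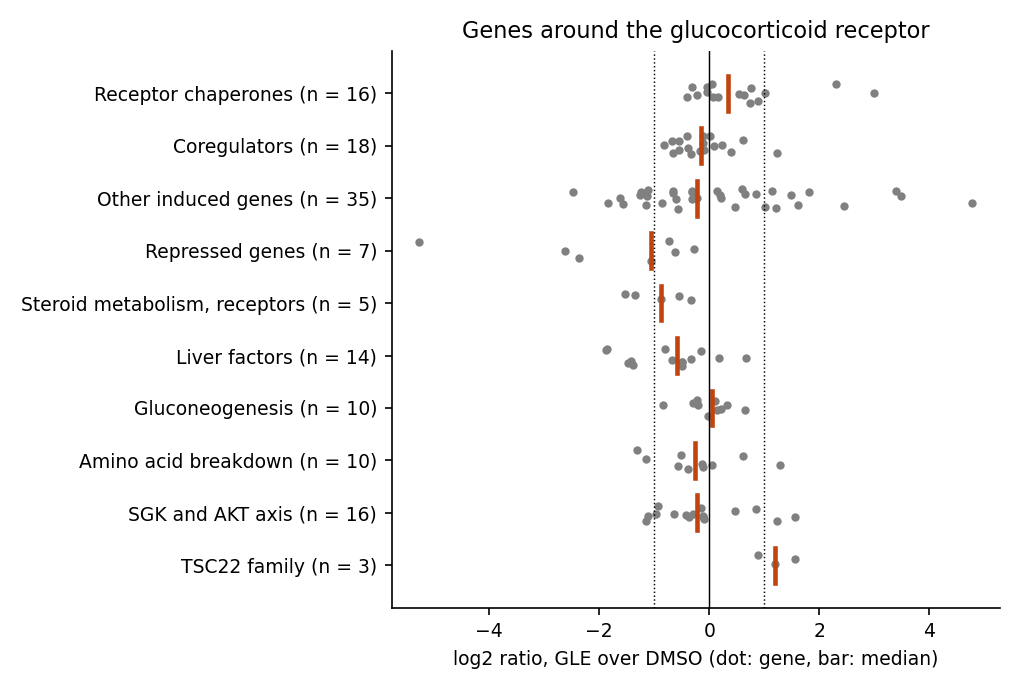
Log2 ratio of GLE over DMSO for each gene with at least 30 counts in the 10 lists (dots, spread vertically for sight), with the list median as a bar and dotted lines at 2-fold. Chaperones have a median of 0.35, the repressed genes -1.06 and the liver factors -0.59, and the other induced genes spread widely to both sides.

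Liver transcription factors known to act at the TAT and PCK1 genes leaned lower, with 5 of 14 lower and 0 higher by 2-fold or more, 10 intervals below 1, 1 above, and a median of -0.59. With a GC trend removed the median was -0.43. ONECUT1 had a ratio of 0.276 (0.223 to 0.340), CEBPA of 0.357 (0.317 to 0.402) and HNF4A of 0.372 (0.317 to 0.434), while PCK1 itself had counts in the GLE library alone. CREB1, the cyclic AMP factor, was at 1.59 (1.31 to 1.94), named after its value was seen. Gluconeogenesis genes stayed close to the control, with 0 of 10 beyond 2-fold, a median of 0.04 and a mean of -0.02. The median was -0.11 at a minimum of 10 counts or with none, and -0.04 when scaled by total counts. PCK2, the mitochondrial form of PCK1, was at 1.57 (1.25 to 1.96) and PGK1, a glycolytic kinase, at 1.25 (1.11 to 1.42). SLC37A4, the glucose 6-phosphate carrier, was 1.80-fold (1.32 to 2.50) and the glycolytic enzyme ENO1 1.23-fold (1.18 to 1.27) lower. G6PC1, which releases free glucose, was at 0 in both libraries.

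Amino acid breakdown genes around TAT had 1 of 10 higher and 2 lower by 2-fold or more, near the background shares, with a median of -0.25. GOT1, the cytosolic aspartate transaminase, was at 2.45 (2.18 to 2.76). GSTZ1, a later enzyme of tyrosine breakdown, was 2.26-fold lower (1.37 to 3.92), and QDPR, which renews the cofactor tetrahydrobiopterin, 1.49-fold lower (1.31 to 1.69).

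Kinases of the SGK and AKT group, their activators and their substrates lay on both sides, with a median of -0.22. The interval was above 1 in 3 and below 1 in 8 of the 16 measured, where the backgrounds were 27.7% and 30.1%. Near the background shares, 2 of 16 were higher and 2 lower by 2-fold or more. Scaled by total counts, 4 were that much lower. SGK2, the third SGK gene, had 47 GLE and 172 DMSO counts and was 2.24-fold lower (1.61 to 3.16), the same side as SGK1. NDRG2 and NDRG1, substrates of SGK1, were 2.18-fold (1.74 to 2.74) and 1.97-fold (1.64 to 2.39) lower. FOXO3, a transcription factor that SGK1 and AKT phosphorylate, was at 2.36 (2.06 to 2.71). Of the TSC22 family and partners outside the 9 genes, 3 were measured, 2 of them higher by 2-fold or more, with a median of 1.20. NRBP1, a pseudokinase partner of TSC22 proteins, was at 2.96 (2.30 to 3.84), TSC22D2 at 2.30 (1.85 to 2.87) and TSC22D4 at 1.85 (1.11 to 3.09). Of the 4 TSC22 genes, TSC22D1 was therefore the one below its control level.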

How the data were processed

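Gene-level read counts of 1 GLE and 1 DMSO library of Hep3B cells were used. The authors deposited raw counts per gene symbol as whole numbers, without normalization. Libraries were made from 500 ng of total RNA with a Lexogen QuantSeq kit, per the labels' protocols. The submitters' processing notes name fastp, STAR, HTSeq and GRCh38. No version, annotation, strand or overlap setting was given in the sources used here, so reads of overlapping genes cannot be told apart.

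Counts were scaled by TMM factors from edgeR 4.0.16 under R 4.3.3, which were 0.972 for the GLE and 1.03 for the DMSO library. Ratios have exact Clopper-Pearson 95% intervals of the GLE share of counts, and levels exact Poisson intervals. Genes needed 30 counts over both libraries, log2 ratios had 0.5 added, and the floor was 3 counts. Within-library ratios used the conditional odds ratio of SciPy 1.17.1. The code was tested on simulated data. No replicates exist, so no test was made.

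The 9 genes, the 10 lists and the settings were chosen with earlier results of these data known. Named genes were the 9, up to 4 per list whose interval excluded 1, ranked by the bound nearest to 1, the 3 nearest in ratio to NR3C1 and to SGK1, genes overlapping the 9, and cell type markers, and a few genes named by it are left out here. The lists hold 172 gene symbols, and 1 of them, an older symbol of another entry, has no row of its own. Promoter sequences and positions came from RefSeq (GRCh38.p14). All 9 symbols matched.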

Additional observations from a re-analysis of the deposited data

How the results depend on the processing

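No paired analysis was possible because each group has 1 library, and no library could be left out. Under scaling by total counts, DESeq2 1.42.0 size factors, upper-quartile factors, median centring, totals without the 20 most abundant and mitochondrial genes, 2 added to each count, and removal of a trend with GC content (added after seeing the data), the ratio stayed inside its counting interval for all 5 measured genes. It ran from 0.827 to 0.892 for NR3C1, 0.10 to 0.119 for SGK1, 1.15 to 1.26 for FKBP5, 2.18 to 2.47 for TSC22D3 and 0.445 to 0.505 for TSC22D1. The fold of PCK1 at the floor of 3 DMSO counts ran from 7.21 to 7.78 under the scalings. The counts beyond 2-fold moved with the filter and the criterion, by construction. Over all genes, 1655 were higher and 1840 lower at a minimum of 10 counts, 613 and 579 at 100 counts, 4224 and 3989 with no minimum, 423 and 316 with the whole interval beyond 2-fold, and 2136 and 2423 at 1.5-fold, against 1056 and 1164. Of the 9 genes, 2 were higher at a minimum of 10 counts, 3 with none, 0 at 100 counts or by the whole interval. The lower ones numbered 1 at 100 counts, by the whole interval, and with 2 added to each count. The added higher ones were PCK1, at 14 GLE and 0 DMSO counts, and with no minimum also CRISPLD2, at 1 GLE and 0 DMSO counts. Their ratios have no finite value, so they were counted as higher without a measured fold. Shares of all genes at these other minimums are not given. The median of the other induced genes was 0.15 at a minimum of 10 counts, against -0.22. That of the gluconeogenesis genes was -0.11 at a minimum of 10 counts or with none and -0.04 under total counts, against 0.04. These were the 4 of 100 list medians under alternatives that changed sign, and 15 others moved by more than 0.1. The interval of FKBP5 included 1 under 4 of these scalings, which left 1 of the 5 measured genes with an interval above 1. Depth limits TAT and CRISPLD2, which lay at or under the floor in both libraries.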
